A study of Homo sapiens with 2 samples.

Results

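The genes described here are 10 described targets of the transcription factors YAP and TEAD, namely CTGF, CYR61, IGFBP3, F3, CRIM1, LATS2, AMOTL1, AMOTL2, MYOF and ANKRD1. They were taken by gene symbol from the gene entries of the deposited count table, where all 10 were found among 57736 genes, with CYR61 and CTGF under these older symbols (now CCN1 and CCN2). The study compared A549 cells, a lung adenocarcinoma line of epithelial origin, here with a red fluorescent reporter of vimentin. One library came from cells labelled as a TGF-beta-induced model of the epithelial to mesenchymal transition (EMT) and 1 from cells given no treatment, both of a genotype labelled WT. Neither the dose nor the duration of TGF-beta is given in the sources used here, nor whether the reporter line is 1 clone.

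YAP and its paralog TAZ (encoded by WWTR1) are coactivators without a DNA-binding domain of their own. When the Hippo kinase cascade is weak, as in spread cells on stiff matrix, they enter the nucleus, bind TEAD proteins and raise the transcription of genes for matrix proteins, growth factors and cytoskeletal regulators. The kinases LATS1 and LATS2 phosphorylate YAP and TAZ and keep them in the cytoplasm, and since LATS2 and the angiomotin-like genes are themselves targets, the output feeds back on its source. TEAD often binds together with AP-1, and CTGF also responds to SMAD proteins downstream of TGF-beta.

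The core TEAD motif is GGAATG, and it could be read in the members' promoters, of which RefSeq (build GRCh38.p14) gave 9 windows for 8 of the 10 members. Each window runs from 250 bases before the transcription start to 50 after it. At least 1 match on either strand was present for 4 of these 8 members, against 16.7% of the 27305 genes with a window (14.0% of all 35116 windows). CTGF held 3 matches, a number reached by 0.128% of all windows, and ANKRD1 held 2. The 4 promoters with a TEAD motif are printed because they show where the motif of these targets lies, with the motif and any AP-1 motif in capitals and all on the minus strand (CTGF chr6:131951323-131951622, ANKRD1 chr10:90921038-90921337, AMOTL2 at its second start chr3:134374398-134374697, LATS2 chr13:21061537-21061836).
CTGF: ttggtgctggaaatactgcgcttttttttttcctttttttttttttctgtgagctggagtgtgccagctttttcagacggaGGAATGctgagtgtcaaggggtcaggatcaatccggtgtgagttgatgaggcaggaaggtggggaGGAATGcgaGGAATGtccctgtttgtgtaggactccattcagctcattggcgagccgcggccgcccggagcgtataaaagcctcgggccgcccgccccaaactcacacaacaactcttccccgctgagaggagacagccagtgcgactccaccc
ANKRD1: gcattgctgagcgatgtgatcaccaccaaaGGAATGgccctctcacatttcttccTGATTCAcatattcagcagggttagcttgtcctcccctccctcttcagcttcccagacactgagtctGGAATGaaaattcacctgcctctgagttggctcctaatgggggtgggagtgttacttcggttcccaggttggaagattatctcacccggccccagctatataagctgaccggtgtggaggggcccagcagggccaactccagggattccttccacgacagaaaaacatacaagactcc
AMOTL2: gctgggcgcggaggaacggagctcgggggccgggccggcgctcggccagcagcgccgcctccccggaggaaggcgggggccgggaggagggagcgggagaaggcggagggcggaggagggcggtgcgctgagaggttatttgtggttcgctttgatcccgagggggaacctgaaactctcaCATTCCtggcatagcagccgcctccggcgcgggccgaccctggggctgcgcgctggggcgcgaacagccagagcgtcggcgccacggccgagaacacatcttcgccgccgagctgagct
LATS2: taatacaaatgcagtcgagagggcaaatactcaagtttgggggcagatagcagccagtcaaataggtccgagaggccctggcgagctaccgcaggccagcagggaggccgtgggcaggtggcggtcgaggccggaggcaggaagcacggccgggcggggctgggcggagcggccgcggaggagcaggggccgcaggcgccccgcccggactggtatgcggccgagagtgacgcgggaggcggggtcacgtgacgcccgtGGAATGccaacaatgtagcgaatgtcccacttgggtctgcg

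In the CTGF window the motif began at -169, -104 and -95 bases from the start. In the ANKRD1 window it began at -220 and -128, with an AP-1 motif (TGANTCA) between them at -195. The single AMOTL2 match lay on the opposite strand, at -69 from the second of its 2 starts, and the LATS2 match began 9 bases after the start. No TEAD match lay in the windows of F3, AMOTL1, IGFBP3 and MYOF or at the first AMOTL2 start, and CYR61 and CRIM1 have no entry. F3 instead held 2 AP-1 motifs, at -223 and -210 bases from its start (chr1:94541710-94542009, minus strand), which are shown since this gene was the one member with no ratio.
F3: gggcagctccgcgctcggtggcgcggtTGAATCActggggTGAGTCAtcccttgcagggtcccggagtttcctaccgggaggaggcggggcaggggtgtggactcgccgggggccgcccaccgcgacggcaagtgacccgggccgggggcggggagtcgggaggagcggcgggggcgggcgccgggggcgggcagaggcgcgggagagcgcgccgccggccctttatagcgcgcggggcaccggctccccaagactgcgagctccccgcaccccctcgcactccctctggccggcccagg

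AP-1 motifs were present in 2 of the 8 members with a window, F3 and ANKRD1, and in 9.37% of all genes with one. No TEAD and AP-1 motifs overlapped. The palindromic SMAD motif, GTCT followed directly by AGAC, was in none of the members' windows and in those of 0.256% of all genes. Among 21 other described YAP and TEAD targets, 14 had a window, of which 7 held the TEAD motif and 0 the AP-1 motif. A match is a description of letters and not of binding.

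**Figure D1:**
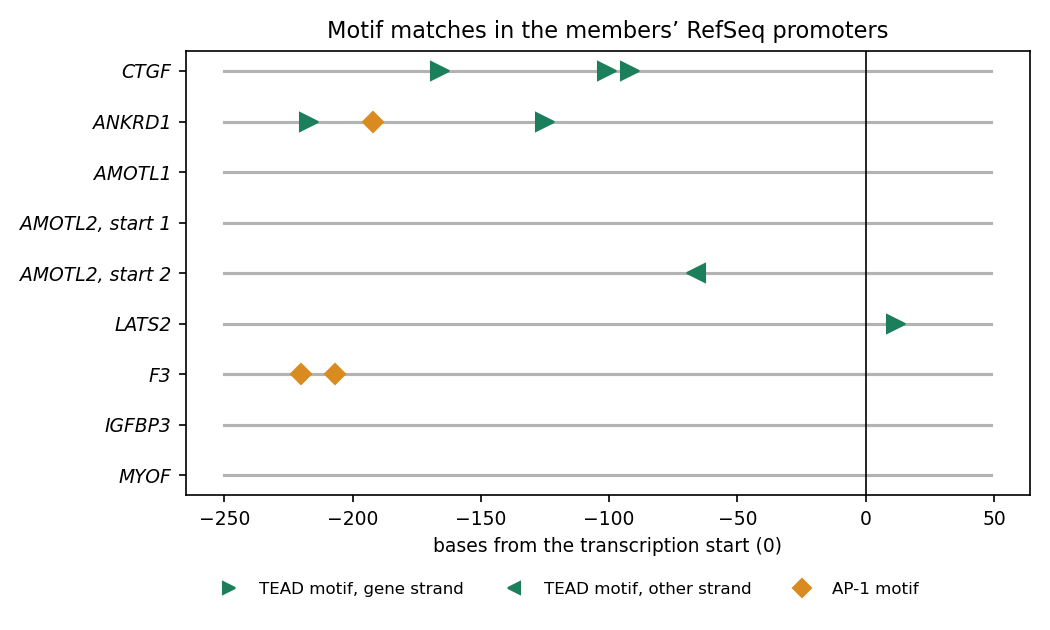
Positions of the TEAD motif (triangles, pointing along the strand that reads GGAATG) and the AP-1 motif (diamonds) in the 9 promoter windows of 8 members, in bases from the transcription start. CTGF holds 3 TEAD motifs and ANKRD1 2, and 5 windows hold none.

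The libraries are shallow, with 595124.5 expected counts, which are estimates and can hold fractions, in the library labelled TGF-beta and 673134.6 in the untreated library. Genes above 0 numbered 22807 and 23703, in the same order, but those with at least 20 counts numbered 1965 and 3157. The 10 most counted genes of each library held 43.7% and 32.7% of its counts. The part of this difference in the members' ratios was not tested. Counts were rounded and given as CPM, the count relative to the library total after scaling by the trimmed mean of M-values (TMM). A gene passed the filter with at least 5 CPM in 1 library, and differences are called by size, at least 2-fold. With 1 library a group there is no replicate check and no p-value, and intervals are exact 95% counting intervals. Of 15401 genes that passed, 26.7% (4111) were lower by at least 2-fold in the library labelled TGF-beta and 22.0% (3391) were higher by as much, while DESeq2 size factors gave 4753 lower and 2463 higher. Markers of A549 and epithelial cells summed to 306 CPM in the library labelled TGF-beta against 767 CPM in the untreated library, with KRT7 at 32 and 179 counts, AKR1B10 at 0 and 22, and the epithelial cadherin CDH1 at 4 and 1. Fibroblast markers summed to 742 against 380 CPM, most of it COL1A1 (LUM at 0 in both), endothelial markers to 90.3 against 85.5 CPM, and leukocyte markers to 26.5 against 64.5 CPM (LYZ and MS4A1 at 0 in both). Of 23 direct SMAD targets and TGF-beta feedback genes that passed, 14 were at least 2-fold lower in the library labelled TGF-beta and 2, SKI and COL1A1, were higher, with TGFBI, a secreted matrix protein, at 15 counts against 407 and the pathway's feedback inhibitor PMEPA1 at 3 against 71. TGF-beta is known to induce many genes of this list, and under TMM most of the list was lower, against the label. The labels were used as given. Whether the 2 columns carry the right labels was not tested, and an exchange would turn the sign of every ratio given here. Ribosomal protein genes were lower too, with a median log2 ratio of -3.26 over 73 that passed and summed levels of 2641 against 30165 CPM, and the part of this and of the marker levels in the members' ratios was not tested. Scaled on ribosomal protein counts instead of TMM, every log2 ratio would be higher by 3.51. The median would then be 2.14 over the SMAD targets and feedback genes and 3.26 over the 22300 genes that pass on that scale.

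The YAP and TEAD target genes were lower in the library labelled TGF-beta than in the untreated library when set against the other genes that passed. Of the 10 members, 9 passed the filter, 7 of them lower by at least 2-fold and 0 higher by as much, against the 26.7% and 22.0% of all genes. The median log2 ratio of the 9 was -1.78 (quartiles -2.60 and -1.08), against 0.01 over all genes that passed. The sign turned when ribosomal protein counts set the scale, since 7 of the 8 members with a ratio were then above 0 and IGFBP3 alone was below. All ratios shifted alike on that scale, but other sets of genes passed the filter. The members' median there was 1.73 over 9 that passed, with F3 among them and ANKRD1 not. It lay below the 3.26 over the 22300 genes that passed on that scale. CTGF and ANKRD1 passed only through the untreated library and therefore had to be lower in the library labelled TGF-beta, so the count over members that passed is a description. Of the 7 members that passed in both libraries, 5 were at least 2-fold lower, beside 19.7% of the 8433 genes that did so.

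Summed over all 10 members, the library labelled TGF-beta held 60 counts and the untreated library 432. That is 106 against 606 CPM, and the log2 ratio of the sums was -2.51 with a counting interval of -2.93 to -2.12. IGFBP3 alone held 227 of the untreated counts. Without IGFBP3 the sums were 55 and 205 counts, and their log2 ratio was -1.56 (-2.02 to -1.13). Levels of different members are not compared with each other, because each is read through its own amplicon. In bulk samples, fewer cells of a kind and less RNA per cell cannot be told apart.

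**Figure D2:**
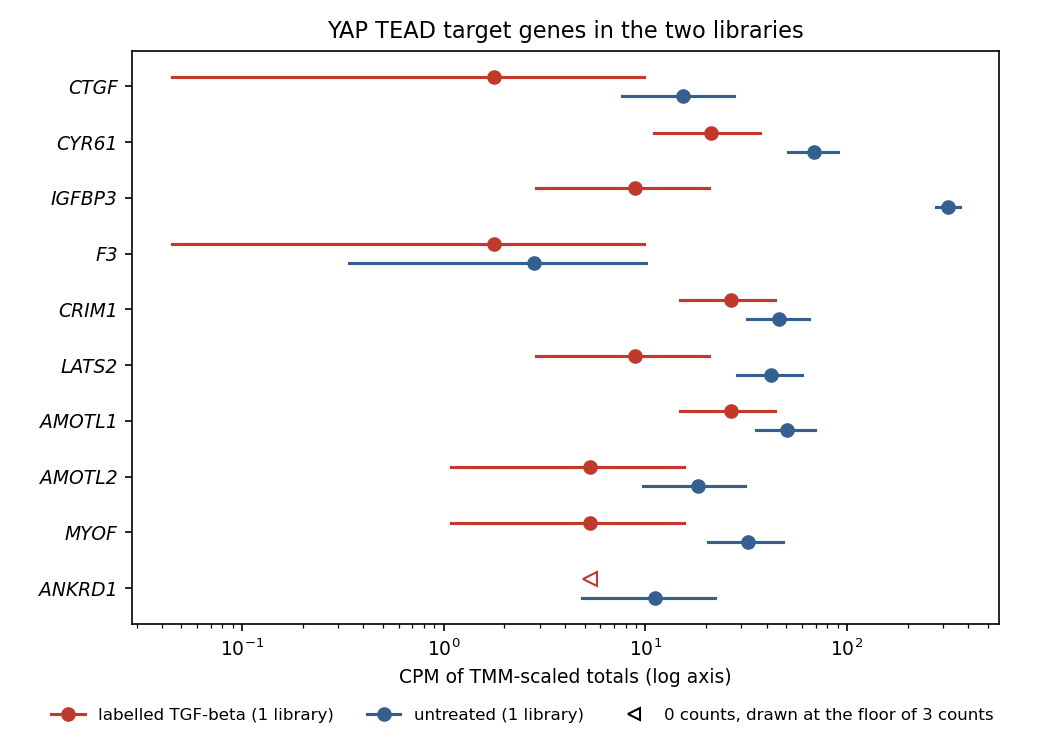
Level of each of the 10 members in the library labelled TGF-beta (upper point of each pair) and the untreated library (lower point), in CPM on a log axis with exact 95% Poisson intervals. The point of the library labelled TGF-beta lies left of the untreated one for each member, with ANKRD1, at 0 counts there, drawn at the floor of 3 counts. CTGF and ANKRD1 passed only through the untreated library and had to lie so. Overlap of the intervals of level was not counted over all genes and is not read here. The interval of the ratio lay wholly below 0 for 7 of the 9 members that passed, beside 16.8% of all genes that passed.

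The matricellular ligands came first among the classic targets. CTGF (connective tissue growth factor, ENSG00000118523, hg19 chromosome 6, 132269316 to 132272513, minus strand) is a secreted modulator of adhesion and fibrosis. It had 1 count in the library labelled TGF-beta and 11 in the untreated library, or 1.77 CPM (0.0448 to 9.86) against 15.4 CPM (7.70 to 27.6). The log2 ratio was -3.12 (-8.55 to -0.34), so the gene was lower in the library labelled TGF-beta by a factor that 1 count hardly fixes. CYR61 (ENSG00000142871, chromosome 1, 86046444 to 86049645, plus strand) is its close relative, an integrin ligand and the other standard readout of YAP activity. CYR61 had 12 counts in the library labelled TGF-beta against 49 in the untreated library, or 21.2 CPM (11.0 to 37.1) against 68.7 CPM (50.8 to 90.8). It was 3.24-fold lower, with a log2 ratio of -1.69 (-2.74 to -0.76).

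IGFBP3 showed the largest difference of the members. It encodes the main carrier of insulin-like growth factors in serum, also secreted by many epithelial cells (ENSG00000146674, chromosome 7, 45951949 to 45961473, minus strand). IGFBP3 had 5 counts in the library labelled TGF-beta against 227 in the untreated library, or 8.85 CPM (2.87 to 20.7) against 318 CPM (278 to 363). The ratio was 36.0-fold lower, a log2 ratio of -5.17 (-6.81 to -3.93). Of the 8 members with a ratio and counts in both libraries, IGFBP3 alone had a ratio below the median of the ribosomal protein genes.

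The surface proteins were nearer to equality or too sparse. F3 encodes tissue factor, the cell-surface initiator of coagulation (ENSG00000117525, chromosome 1, 94994781 to 95007356, minus strand). It had 1 count in the library labelled TGF-beta and 2 in the untreated library, did not pass the filter, and a difference was not detectable at this depth. CRIM1 is a transmembrane protein that binds bone morphogenetic proteins (ENSG00000150938, chromosome 2, 36583069 to 36778278, plus strand). CRIM1 had 15 counts in the library labelled TGF-beta against 33 in the untreated library, or 26.5 CPM (14.9 to 43.8) against 46.3 CPM (31.9 to 65.0), and its log2 ratio of -0.80 had an interval from -1.79 to 0.12. This value is uncertain, as described with the exons.

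The negative regulators of YAP among the targets differed in size. LATS2, the kinase that inactivates YAP and TAZ (ENSG00000150457, chromosome 13, 21547171 to 21635686, minus strand), had 5 counts in the library labelled TGF-beta against 30 in the untreated library, or 8.85 CPM (2.87 to 20.7) against 42.1 CPM (28.4 to 60.1). LATS2 was 4.75-fold lower, with a log2 ratio of -2.25 (-3.97 to -0.87). AMOTL2, a scaffold at cell junctions that can hold YAP in the cytoplasm (ENSG00000114019, chromosome 3, 134074716 to 134094321, minus strand), had 3 counts against 13, or 5.31 against 18.2 CPM, and a log2 ratio of -1.78 whose interval (-4.23 to 0.08) includes equality. Its relative AMOTL1 (ENSG00000166025, chromosome 11, 94439597 to 94609918, plus strand) had 15 counts against 36, or 26.5 CPM (14.9 to 43.8) against 50.5 CPM (35.4 to 69.9). AMOTL1 lay just short of the 2-fold line, 1.90-fold lower with a log2 ratio of -0.93 (-1.90 to -0.02).

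The last pair comprises a membrane protein and a nuclear cofactor. MYOF encodes myoferlin, a ferlin of membrane repair and receptor trafficking (ENSG00000138119, chromosome 10, 95066186 to 95242074, minus strand). MYOF had 3 counts in the library labelled TGF-beta against 23 in the untreated library, or 5.31 CPM (1.09 to 15.5) against 32.3 CPM (20.4 to 48.4), and a log2 ratio of -2.60 (-4.98 to -0.88). ANKRD1, an ankyrin repeat protein of muscle sarcomeres and the nucleus (ENSG00000148677, chromosome 10, 92671853 to 92681033, minus strand), had 0 counts in the library labelled TGF-beta and 8 in the untreated library. The exact interval of a count of 0 reached up to 6.53 CPM, against 11.2 CPM (4.84 to 22.1) in the untreated library. Set at a floor of 3 counts per library (5.31 CPM), ANKRD1 was at least 2.11-fold lower with the untreated count taken as it stands. With the counting error of both libraries the bound was weaker, at a log2 ratio of -0.44.

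Ordered by ratio from the lowest, the members ran IGFBP3, CTGF, MYOF, LATS2, AMOTL2, CYR61, ANKRD1, AMOTL1 and CRIM1. No neighbours in this order differed beyond their counting intervals. IGFBP3 stood apart from CYR61, AMOTL1 and CRIM1, whose intervals did not overlap its own. For 7 of the 9 members with a ratio the interval lay wholly below 0, which was so for 16.8% of all genes that passed, and for 0 members it lay wholly above, against 9.99% of all genes. CTGF and ANKRD1, which had to be lower, are among the 7. Of the 7 members that passed in both libraries, 5 had an interval wholly below 0, beside 15.0% of all genes that did so. The 2 exceptions were AMOTL2 and CRIM1.

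**Figure D3:**
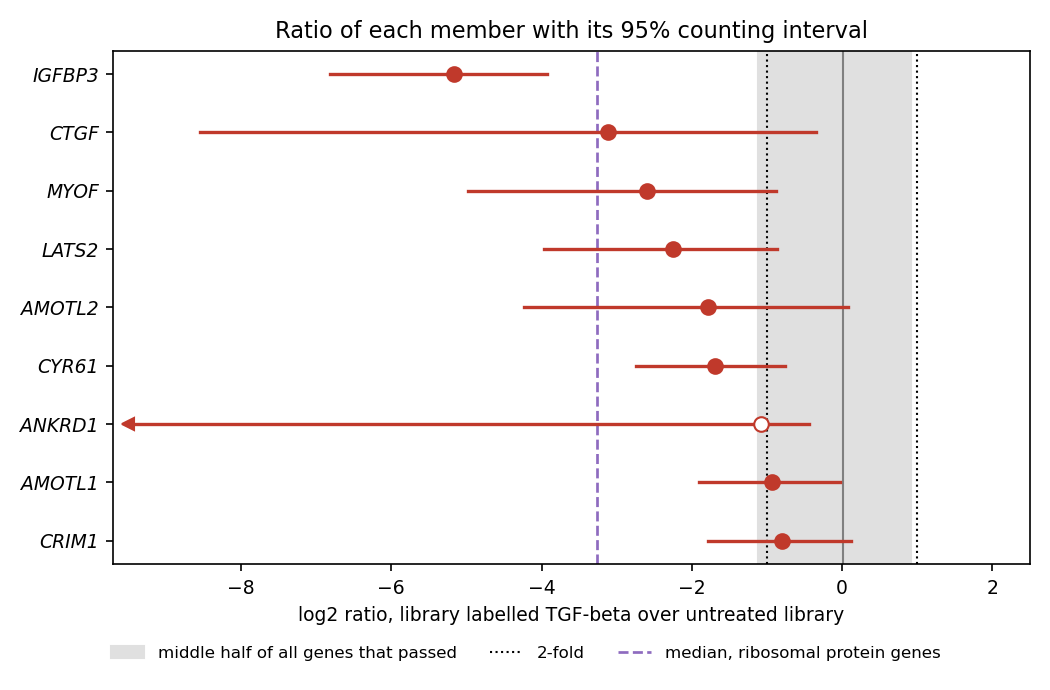
Log2 ratio of the library labelled TGF-beta over the untreated library for the 9 members that passed the filter, with 95% counting intervals (ANKRD1, open, is a bound). The band spans the quartiles of all genes (-1.12 and 0.92) and the dashed line the ribosomal protein median (-3.26), and of the 8 members counted in both libraries IGFBP3 alone has its ratio below that line.

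Because the assay reads short amplicons, the exon entries show which stretch of each gene was counted. Overlapping exons of a gene were merged to blocks and numbered from the 5′ end. In the untreated library the counts of IGFBP3 lay almost wholly in blocks 4 and 5 of 7 (hg19 45956595 to 45957038 and 45956147 to 45956266, both coding), with 123 and 101 counts, where the library labelled TGF-beta had 0. The 5 counts of the library labelled TGF-beta were all in block 7 (45951949 to 45953433, the 3′ untranslated region), where the untreated library had 2. Over blocks 4 and 5 IGFBP3 was at least 59.2-fold lower by the floor of 3 counts per library, with the untreated count taken as it stands. With the counting error of both libraries the upper end of the log2 ratio was -5.58, and the interval over the whole gene (-6.81 to -3.93) includes that value.

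CYR61 showed the same kind of shift. The untreated library had 25.2 and 21.0 counts in its blocks 4 and 5 of 5 (86048099 to 86048307, coding, and 86048423 to 86049645, coding and untranslated), where the library labelled TGF-beta had 0.545 and 0.455. Block 3 (86047611 to 86047967, coding) held 9 counts in the library labelled TGF-beta and 0 in the untreated library. Over the 2 most counted blocks CYR61 had 1 count against 46 and a log2 ratio of -5.19 (-10.52 to -2.64) in place of -1.69, so most of its counts in the library labelled TGF-beta came from a stretch that was not read in the untreated library.

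CRIM1 was mixed in another way. Its blocks 14 and 15 of 21 (36740699 to 36740908 and 36744470 to 36744685, both coding) held 7 and 2.33 counts in the library labelled TGF-beta against 11.6 and 11.2 in the untreated library. Block 21, the last, held 5.83 against 0. Block 14 overlaps RP11-78I14.1, a gene on the opposite strand (36740398 to 36740875) with expected counts of 2.21 in the library labelled TGF-beta and 24 in the untreated library, and since the treatment of strand is not given, reads of these genes cannot be told apart. CRIM1 and this gene together had 17 counts against 57, 2.66-fold lower, with a log2 ratio of -1.41 (-2.28 to -0.61). That would place CRIM1 with the called members only if all counts of the other gene belonged to CRIM1. Part of the other gene lies outside block 14, and the origin of its counts was not tested. The exon entries of CRIM1 also did not add up to its gene entry (19.2 against 14.6 in the library labelled TGF-beta, 24.7 against 33.2 in the untreated library), a difference of more than 0.5 counts that 14.8% of the genes that passed shared.

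LATS2 and AMOTL1 were counted mainly in the same block in both libraries, and the rest were sparse. AMOTL1 was read in block 11 of 17 (94583279 to 94583424, coding), with 13 counts in the library labelled TGF-beta against 33 in the untreated library. LATS2 was read in its last block (21547171 to 21549503, the end of the coding sequence and the 3′ untranslated region), with 5 against 25.5, and the untreated library had 1 to 1.44 counts in each of 4 other blocks. MYOF had 2 counts against 7.37 in block 58 of 59 and 0 against 14.6 in the last block. ANKRD1 had 0 against 3.41 and 4.59 in blocks 6 and 7 of 9, and CTGF had 0 against 8.81 in its last block, its 1 count in the library labelled TGF-beta lying in block 2. AMOTL2 was spread over 8 of its 16 blocks with at most 4.93 counts in any, and F3 had at most 1.27.

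Over all 10 members, the 2 most counted blocks of each gene held 34.3 counts in the library labelled TGF-beta and 403 in the untreated library, while all other blocks held 30 and 19.8. Counts outside the 2 blocks were therefore 46.7% of the members' exon counts in the library labelled TGF-beta (exact binomial interval 34.3% to 59.8%) and 4.68% in the untreated library (2.91% to 7.21%). Over all 12221 genes that passed and had more than 2 blocks these shares were 3.40% and 3.36%, and over the 3314 of them that were at least 2-fold lower they were 19.5% and 5.01%. The blocks were picked on the summed counts, which follow the untreated library wherever a gene is lower in the other, and the part of this choice in the shares was not tested. Without CRIM1 the shares of the members were 44.6% and 4.46%. The binomial intervals pool the counts of all members, so they cover counting error and not the spread between members. In the library labelled TGF-beta, CYR61, CRIM1 and IGFBP3 held 11, 9.83 and 5 of the 30 counts outside the blocks.

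**Figure D4:**
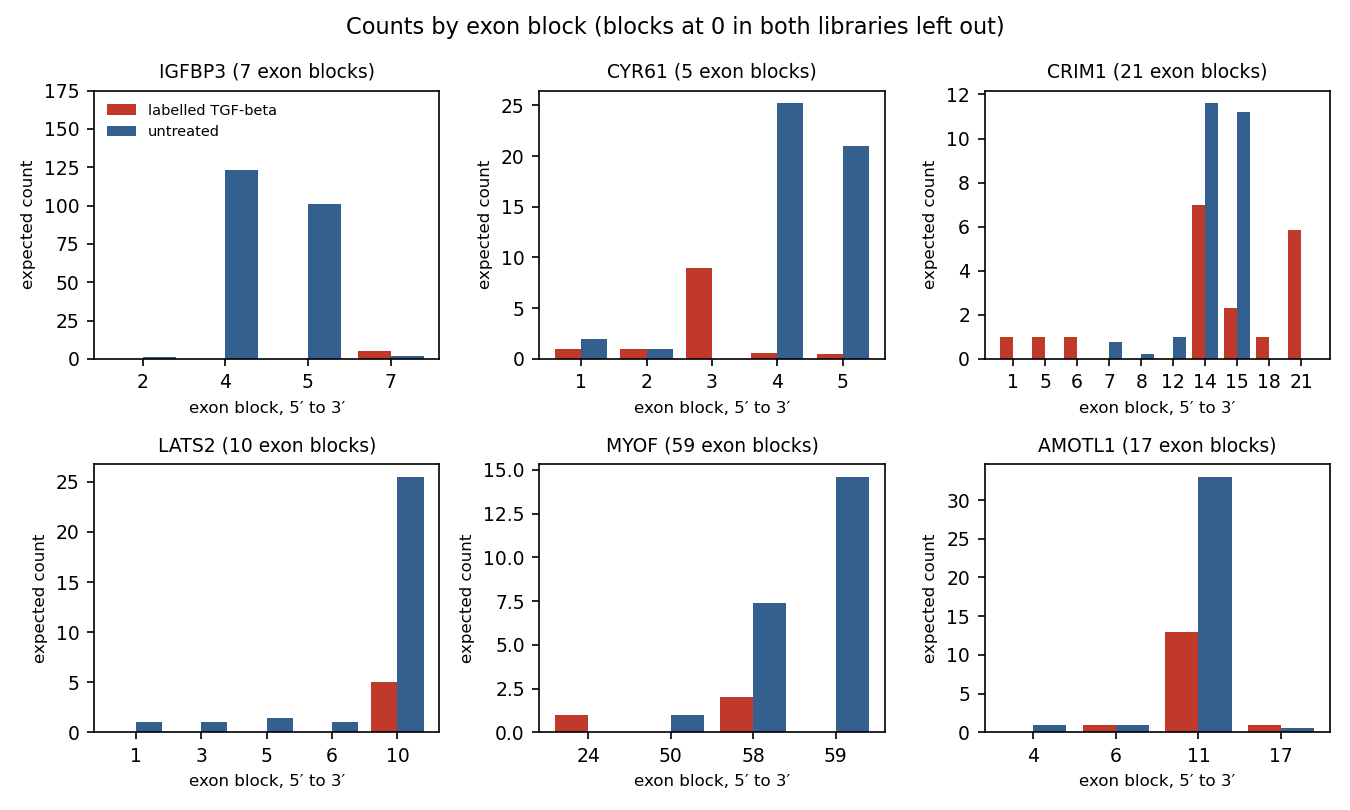
Expected counts by exon block for 6 members, with the library labelled TGF-beta at left in each pair of bars and the untreated library at right; axes differ between panels and start at 0. IGFBP3 and CYR61 are counted in different blocks in the libraries, while LATS2 and AMOTL1 are counted in the same one.

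The effectors of the pathway were sparsely read. YAP1 had 1 count in the library labelled TGF-beta and 6 in the untreated library (log2 ratio -2.25, -7.77 to 0.79). WWTR1, which encodes TAZ, was the best read, with 25 counts against 42 and a log2 ratio of -0.41 (-1.19 to 0.34). Of the TEAD genes, TEAD1 had 7 counts against 6 (0.56, -1.24 to 2.41) and TEAD4 had 1 against 9 (-2.83, -8.29 to 0.02), while TEAD2 with 0 against 2 and TEAD3 with 2 against 1 gave no ratio. Of the 10 effector and cofactor genes 5 passed, 3 were at least 2-fold lower and 0 higher, beside 26.7% and 22.0% of all genes. None of the 5 intervals excluded equality. All 3 lower genes passed only through the untreated library and therefore had to be lower in the library labelled TGF-beta. The median of the 5 was -1.47, beside 0.01 over all genes. When scaled on ribosomal protein counts the list median was 3.10, beside 3.26 over all genes.

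The Hippo kinases and their upstream regulators were divided. Of 18 genes 16 passed, with 7 at least 2-fold lower and 2 higher and a median log2 ratio of -0.60. NF2, the merlin scaffold that activates the cascade at the membrane, had 5 counts in the library labelled TGF-beta against 35 in the untreated library (-2.47, -4.18 to -1.11). FRMD6 had 1 against 9 (-2.83, -8.29 to 0.02). In the other direction the kinase gene TAOK2 had 18 against 7 (1.70, 0.37 to 3.20) and the angiomotin gene AMOT had 9 against 3 (1.92, -0.08 to 4.44). The share of lower genes, 7 of 16, compares with 26.7% of all genes. Some of the 7, FRMD6 among them, passed only through the untreated library and had to be lower. AMOT passed only through the library labelled TGF-beta and had to be higher, so these counts are a description.

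Other described YAP and TEAD targets lay on both sides of equality. Of 21 genes 18 passed, 7 were at least 2-fold lower and 3 higher, beside 26.7% and 22.0% of all genes, and the median was -0.75. NUAK2, a kinase of the AMPK family, had 1 count in the library labelled TGF-beta against 18 in the untreated library (-3.83, -9.21 to -1.17). PTPN14, a phosphatase that restrains YAP, had 21 against 8 and was higher (1.73, 0.50 to 3.11), and CCDC80 had 6 against 2 (1.92, -0.56 to 5.26). Some of the lower genes, NUAK2 among them, passed only through the untreated library and had to be lower. CCDC80 passed only through the library labelled TGF-beta and had to be higher.

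AP-1 subunits, partners of TEAD at many enhancers, were mostly lower in the library labelled TGF-beta under TMM. Of 8 genes, all of which passed, 6 were at least 2-fold lower and 1 higher, beside 26.7% and 22.0% of all genes, with a median of -2.09 (1.42 on the ribosomal scale). FOSL1 had 1 count in the library labelled TGF-beta against 145 in the untreated library (-6.84, -12.16 to -4.34), and ATF3, a stress-induced partner, had 9 against 77 (-2.76, -3.94 to -1.76). FOSL2 went the other way, with 78 against 22 (2.16, 1.46 to 2.92). FOSL1 passed only through the untreated library and had to be lower.

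Direct SMAD targets and feedback genes had 14 of 23 genes that passed at least 2-fold lower and 2 higher, beside 26.7% and 22.0% of all genes, with a median of -1.43. Lipoprotein lipase is inhibited by the product of ANGPTL4, which had 3 counts in the library labelled TGF-beta against 146 in the untreated library (-5.27, -7.56 to -3.69). The higher genes were SKI, a corepressor of SMAD proteins, with 97 against 44 (1.48, 0.95 to 2.02), and COL1A1, a fibrillar collagen, with 356 against 196 (1.20, 0.94 to 1.46). Actin and contractile genes, whose tension drives YAP into the nucleus, had 14 of 22 lower and 3 higher, beside the same shares, and a median of -1.91. TAGLN2, an actin-binding protein, had 3 against 269 (-6.15, -8.44 to -4.59), and MYL12A, a myosin light chain, had 1 against 36 (-4.83, -10.18 to -2.26). Calponin 1, CNN1, was higher with 15 against 7 (1.44, 0.05 to 2.97), and the profilin gene PFN1 had 4 against 2 (1.34, -1.47 to 4.80). On the ribosomal scale the medians of these lists were 2.14 and 1.97. The ribosomal protein genes had 61 of 73 at least 2-fold lower and 3 higher, from RPL29 with 2 counts against 103 and RPS12 with 16 against 600 to RPS24 with 15 against 4 and RPS29 with 13 against 1. Some lower genes of these lists, MYL12A and RPL29 among them, passed only through the untreated library and had to be lower. PFN1 and RPS29 passed only through the library labelled TGF-beta and had to be higher.

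**Figure D5:**
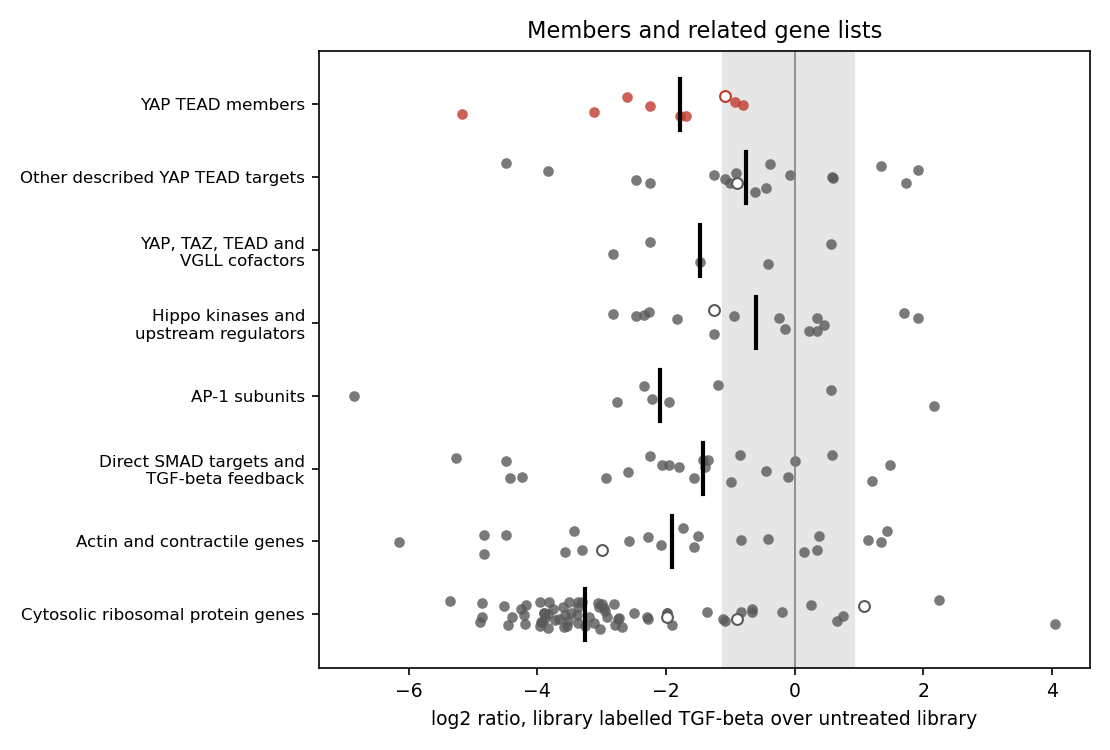
Log2 ratio of the library labelled TGF-beta over the untreated library for each gene that passed the filter and had a ratio, by list; vertical bars are list medians, open circles are bounds from a count of 0, and the band spans the quartiles of all genes. The members' median is -1.78 and that of the ribosomal protein genes -3.26, and the members' median is above 0 (1.73) when ribosomal protein counts set the scale. On that scale F3 passes and ANKRD1 does not, and the median over the 22300 genes that pass is 3.26.

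Paralogs show whether a member's ratio was that of its family. Of the 7 IGF binding proteins, 6 were at least 2-fold lower and 0 higher under TMM, beside 26.7% and 22.0% of all genes. Of the 7 intervals 4 lay wholly below 0, beside 16.8% of all genes. IGFBP6, counted in both tallies, passed only through the untreated library and had to be lower. On the ribosomal scale, however, the called paralogs of IGFBP3 were above 0, as was the median of all genes. IGFBP4 had 28 counts in the library labelled TGF-beta against 250 in the untreated library (-2.82, -3.44 to -2.26), and without IGFBP3 the family still summed to 56 against 333 counts. IGFBP6 had 2 against 13 (-2.36, -5.55 to -0.22) and IGFBP1 had 6 against 22 (-1.54, -3.13 to -0.19). The intervals of the other 3 included equality. IGFBP7 had 3 against 10 (-1.40, -3.90 to 0.56), IGFBP2 had 8 against 23 (-1.19, -2.56 to 0.02) and IGFBP5 had 9 against 15 (-0.40, -1.78 to 0.89).

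The CCN family was divided. Beside CTGF and CYR61, WISP1 had 23 counts in the library labelled TGF-beta against 12 in the untreated library and was higher (1.27, 0.21 to 2.42), WISP2 had 23 against 49 (-0.76, -1.54 to -0.01), and NOV had 4 against 3 (0.75, -1.81 to 3.52). WISP3 had 1 count in each library. In the motin family AMOT was on the other side of equality from AMOTL1 and AMOTL2, and in the LATS pair LATS1 had 2 counts against 0, too few for a ratio.

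The ferlins other than MYOF were within counting error. OTOF had 19 counts in the library labelled TGF-beta against 11 in the untreated library (1.12, -0.02 to 2.34), FER1L5 had 3 against 5 (-0.40, -3.09 to 1.96), and FER1L6 had 1 in each. DYSF had 4 against 0, and the lower end of its interval, -0.26, lay on the other side of equality. The muscle relatives of ANKRD1 were at the limit of detection, ANKRD2 with 0 in both libraries and ANKRD23 with 1 against 3. Over all 18 paralogs 13 passed, 5 were at least 2-fold lower and 3 higher, beside 26.7% and 22.0% of all genes, and the median was -0.40. Among those called, IGFBP6 had to be lower and AMOT higher, since each passed through 1 library only.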

How the data were processed

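AmpliSeq Transcriptome libraries, 1 per condition, were made from 10 ng of total RNA, per the labels' protocols. The authors deposited expected counts per gene, transcript and exon, not normalized. Per the submitters' processing notes, hg19 and DESeq were used in a role that is not stated. The aligner, the counter and any use of strand were not given in the sources used here. Of the gene values above 0, 53.1% (library labelled TGF-beta) and 45.3% (untreated) were whole within 1e-06. Gene entries were rounded to whole numbers (597133 and 674784 counts) and scaled with TMM factors of 0.946 and 1.06 in edgeR 4.0.16 under R 4.3.3. Totals, upper quartile, DESeq2 1.42.0 size factors, ribosomal protein counts and other filters were alternatives. Log2 ratios take no pseudocount. A count of 0 was set to a floor of 3 counts (5.31 and 4.21 CPM), and no ratio is given where both counts were 3 or fewer; list tallies keep such genes. Intervals of ratios are Clopper-Pearson, conditional on the summed count, and cover counting error only, because amplified reads lack molecular identifiers and several can come from 1 molecule. The ratio script was tested on simulated data.

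All 10 members are described. Of each other list, values are given for up to 2 genes per direction that differed most and by at least 2-fold, beside all effectors and paralogs; a gene that is counted in its lists is not reported here by name. No gene was named for a like pattern, since 2 libraries give 1 ratio. The members, lists and rules were chosen with earlier results of these data known, and 2 alternatives (the most counted exon blocks, and CRIM1 with its overlapping gene) after seeing the values. Promoters were matched by RefSeq gene symbol or synonym, and their coordinates are GRCh38.p14 and not hg19.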

Additional observations from a re-analysis of the deposited data

How the results depend on the processing

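Every member that passed and had a ratio was below 0 under all alternatives but the scaling on ribosomal protein counts, and at least 2-fold lower were 9 with DESeq2 size factors, 8 with total counts, 6 with the upper quartile or with totals without the top 10 genes, and 7 to 8 under the others not named next. Of all genes that passed, 4753 of 14067 were as much lower with DESeq2 size factors and 4636 of 15401 with total counts. With the upper quartile 3887 of 15401 were, and with totals without the top 10 genes 3881 of 15401. With the 20 CPM filter 6 members were left and 4 of them were lower, beside 36.0% of the 5341 genes that passed it. Of these 4, LATS2, IGFBP3 and MYOF passed it only through the untreated library and had to be lower. CYR61 alone of the 4 passed it in both libraries, so this count too is a description. Over the 2 most counted exon blocks 8 were lower and the median was -2.66. Those blocks were picked on the summed counts, which follow the untreated library wherever a gene is lower in the other, so these values are a description. Scaled on ribosomal protein counts, 1 member was at least 2-fold lower and 6 higher (F3, at 1 count against 2, among them), and the median was 1.73. There the ratios were 1.73 for AMOTL2, 0.39 for CTGF, 1.82 for CYR61, 1.26 for LATS2 and 0.91 for MYOF, and ANKRD1 did not pass. Among other genes they were 0.75 for ATF3, 0.68 for FRMD6 and TEAD4, 1.04 for NF2, 1.26 for YAP1, 1.98 for IGFBP1, 2.33 for IGFBP2, 0.69 for IGFBP4, 1.15 for IGFBP6 and 2.11 for IGFBP7. The list medians were 3.10 for the cofactors, 1.42 for AP-1, 2.14 for SMAD targets, 1.97 for actin genes, 2.45 for A549, 2.40 for leukocyte and 0.46 for ribosomal protein genes. Over all genes this scaling gave 118 lower and 21021 higher of 22300 that passed, with a median of 3.26. Without a filter or at 1 CPM 7430 were lower and 6903 higher of 27275, and at 20 CPM 1921 and 986 of 5341. These follow from the alternatives' construction: a shift of all ratios by 3.51, or more or fewer genes tested. No paired analysis was possible because each group has 1 library. Depth limits every member, with 0 to 15 counts in the library labelled TGF-beta, and the intervals of AMOTL2 and CRIM1 include equality.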
